A study of Homo sapiens with 9 samples.

Results

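The transcripts of 38 nuclear receptor genes were followed in the MDA-MB-231 line, which was derived from a breast cancer without estrogen receptor, progesterone receptor or amplified HER2 and has a mesenchymal appearance. The genes were chosen by symbol, from the estrogen receptor genes to the HNF4 genes, and with earlier results of these data known. All 38 were found among the 58395 genes counted. RNA-seq libraries came from 3 groups of 3: cells given a nontargeting control siRNA (NC), cells given the first SKP2 siRNA (SKP2-1) and cells given the second SKP2 siRNA (SKP2-2), each for 96 h by reverse transfection. SKP2 is the F-box protein that brings substrates such as p27 to the SCF ubiquitin ligase. No other genotype or agent is stated for any group, and each SKP2 siRNA is 1 reagent in 1 line. No label says that replicates came from separate cultures, so p-values measure only the spread between these libraries. The series' design text names ZIP7 siRNAs, while the titles and treatment labels name SKP2.

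Nuclear receptors are transcription factors that bind DNA through a pair of zinc fingers and, in many members of the family, a small lipid-soluble ligand through a separate domain. Steroid receptors rest with HSP90 chaperones until hormone arrives, whereas retinoid, thyroid hormone, vitamin D, sterol and fatty acid receptors sit on DNA as partners of RXR and trade corepressors for coactivators when ligand binds. Orphan members, such as the COUP-TF, NR4A and REV-ERB receptors, have ligands that are atypical or not known, and several of them act mainly as repressors or through their own transcript level. In breast cancer the family is best known through the estrogen and progesterone receptors, which triple-negative tumours lack.

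Library totals ran from 35.5 to 49.9 M gene counts. Levels are CPM, a gene's counts per 1 M counts of its library, scaled by TMM to correct for differences in composition, and an error after ± is an SD of 3 libraries for a level and an SE for a log2 fold change. SKP2 was 62.1 ± 3.99 CPM in NC, 17.3 times lower with SKP2-1 and 10.4 times lower with SKP2-2, while SLC39A7, the gene of ZIP7, passed the test with neither siRNA (adjusted p = 0.936 and 0.0868, edgeR). Along the third principal component, which held 11.6% of the variance, NC replicate 1 and SKP2-2 replicate 3 lay at one end and NC replicate 3 and SKP2-2 replicate 1 at the other, and results that rest on them are given without them too. Summed mesenchymal markers lay between 6217 and 6728 CPM in the 9 libraries, a sum in which single genes moved apart: of 6, 2 rose and 2 fell with SKP2-1. AXL was 1398 CPM in NC, 630.4 with SKP2-1 and 1311 with SKP2-2, and FN1 was 718, 1253 and 469.8 CPM in the same order. The summed level of 8 endothelial markers was 12.9 to 13.3 CPM in NC, 23.3 to 25.0 with SKP2-1 and 12.9 to 15.1 with SKP2-2, with CLDN5 and ERG at 0 counts throughout. The summed level of 10 immune markers was 5.17 to 5.44, 6.82 to 7.95 and 6.90 to 7.82 CPM in the same order, with MS4A1 and NKG7 at 0 counts. For 7 fibroblast markers the sums were 26.0 to 41.1, 25.8 to 28.9 and 14.6 to 19.6 CPM, and for 13 luminal markers 819 to 1019, 995 to 999.8 and 997 to 1199 CPM. All 9 libraries are labelled as the MDA-MB-231 line, and no label names another cell type. Within the line, fewer cells with a transcript and less of it per cell cannot be told apart in bulk libraries. The part of these marker levels in the receptor results was not tested.

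Of the 38 receptor genes, 35 had at least 1 count in every library and 33 passed the filter on low counts. The other 5, ESR1, PGR, RXRG, NR1H4 and HNF4A, were not tested. To compare genes with each other, levels were divided by the length of merged exons. On that scale NR3C1, the glucocorticoid receptor, was the most abundant receptor in every group, at 34.1 ± 1.63 CPM per kb in NC, 43.3 ± 0.408 with SKP2-1 and 44.8 ± 0.633 with SKP2-2. RXRB (24.7 ± 1.12) and NR2F2 (22.2 ± 1.165) followed in NC, and the order of these 2 was exchanged in both SKP2 groups, where NR2F2 reached 33.9 ± 0.308 and 38.005 ± 1.53 CPM per kb.

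NR1D2 (19.6 ± 1.67 CPM per kb in NC) and PPARD (18.6 ± 1.01) came next and lay within their spread of each other. NR1H2 (13.7 ± 6.97) and ESRRA (11.5 ± 4.59) had the widest relative spread among the leading receptors in NC, so neither could be placed against its neighbours PPARG (10.4 ± 0.609) and NR2C2 (9.91 ± 0.518). At the low end of the tested genes were RORA (0.163 ± 0.0146), ESR2 (0.0804 ± 0.0136), NR5A2 (0.0262 ± 0.00368) and ESRRG (0.0203 ± 0.00488). ESR2 stood 31st of 38 in NC, 25th with SKP2-1 and 27th with SKP2-2, while THRB moved from 23rd in NC to 28th with SKP2-1 and 22nd with SKP2-2. The receptors' summed level was 1382 to 1471 CPM in NC, 1617 to 1629 with SKP2-1 and 1673 to 1783 with SKP2-2, with no overlap between the 3 groups.

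**Figure D1:**
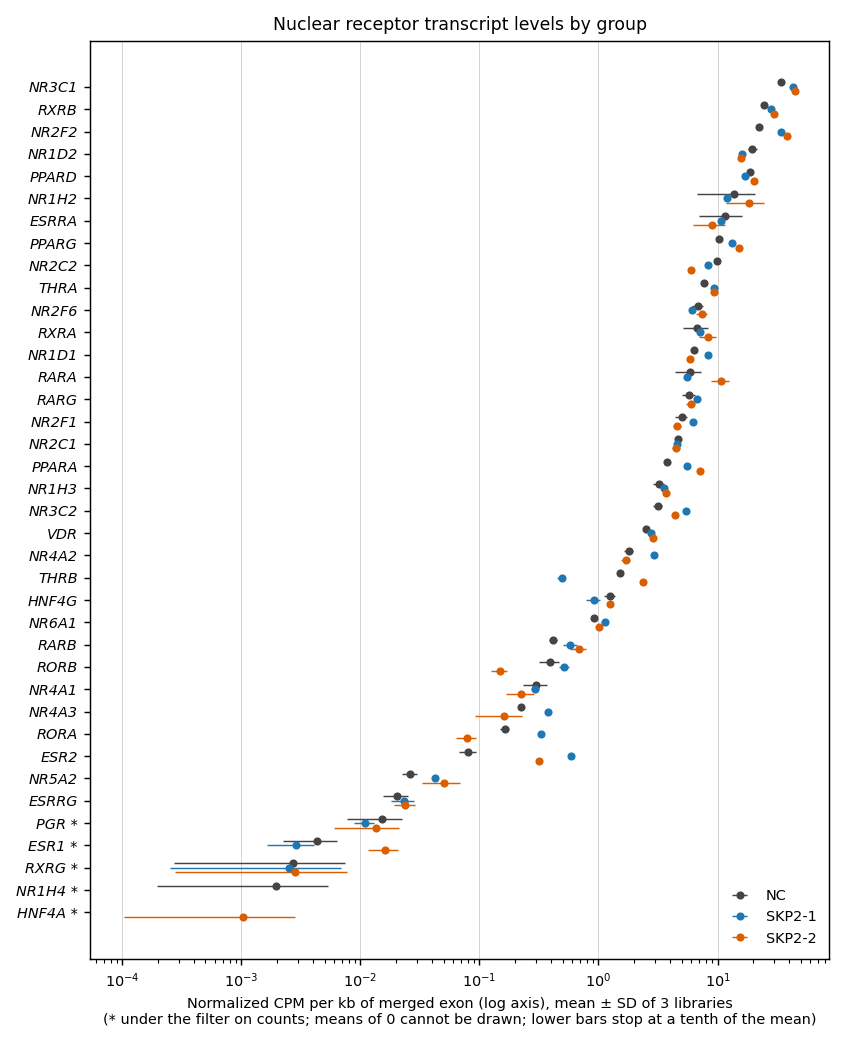
Transcript level of the 38 nuclear receptor genes as normalized CPM per kb of merged exon on a log axis, ordered by the NC mean, with points for the mean and bars for the SD of 3 libraries per group. NR3C1 leads in every group at 34.1 to 44.8 CPM per kb, and the genes marked with an asterisk were under the filter on counts.

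With SKP2-1, 22 of the 33 tested receptor genes passed the test against NC at an adjusted p under 0.05, 17 higher and 5 lower. Over all 16575 genes tested, 45.5% passed, 25% higher and 20.5% lower. With SKP2-2, 17 receptor genes passed, 13 higher and 4 lower, beside 49.4% of all genes, 25.2% higher and 24.1% lower. The share of receptors higher than NC was thus above the share of all genes with each siRNA, at 51.5% and 39.4%, while the share lower than NC was below it, at 15.2% and 12.1%. The 13 higher with SKP2-2 include NR5A2, which passed the filter on counts only through the SKP2 libraries. With counts corrected for GC content, more receptors were lower with SKP2-2, as given in the closing section, and there the gap to all genes nearly closed. The median log2 fold change of the tested receptors was 0.24 with SKP2-1 and 0.17 with SKP2-2, beside 0.02 and 0.03 over all genes tested. Of all genes called with SKP2-1, 55.0% were higher, and 44.0% were when only these 2 groups entered the fit. Without NC replicate 1 and SKP2-2 replicate 3, 17 receptors were higher and 5 lower with SKP2-1 (52.3% of all genes called), and 14 and 6 with SKP2-2 (53.3%). Without NC replicate 3 and SKP2-2 replicate 1 the counts were 12 and 6 (46.1%), and 11 and 5 (45.3%). Because the genes were not drawn at random, these figures describe the list and carry no test.

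Changes of 2-fold or more were few. They comprised 3 receptor genes with SKP2-1 (5.91% of all genes), namely ESR2, THRB and RORA, and 3 with SKP2-2 (6.86%), namely ESR2, RORA and RORB. The same direction was called for 11 receptor genes with both siRNAs, beside 23.6% of all genes. Of these, 9 were higher (12.6% of all genes) and 2 lower (11%). The 2 siRNA groups were compared with the same 3 NC libraries, so that a shift in NC enters both comparisons. Opposite directions were called for 3 receptor genes, THRB, RORA and RORB, beside 6.64% of all genes, and for RORB the call with SKP2-1 was lost in 13 of 20 other analyses. Between the siRNAs, 17 receptor genes differed, 8 higher and 9 lower with SKP2-2, beside 50.5%, 25.2% and 25.3% of all genes, and 4 of them by 2-fold or more (THRB, RORA, RORB and NR4A3, beside 6.96% of all genes). Library values did not overlap between the groups for 23 receptor genes with SKP2-1 (54.8% of all genes), 19 with SKP2-2 (53.6%) and 20 between the siRNAs (64%).

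**Figure D2:**
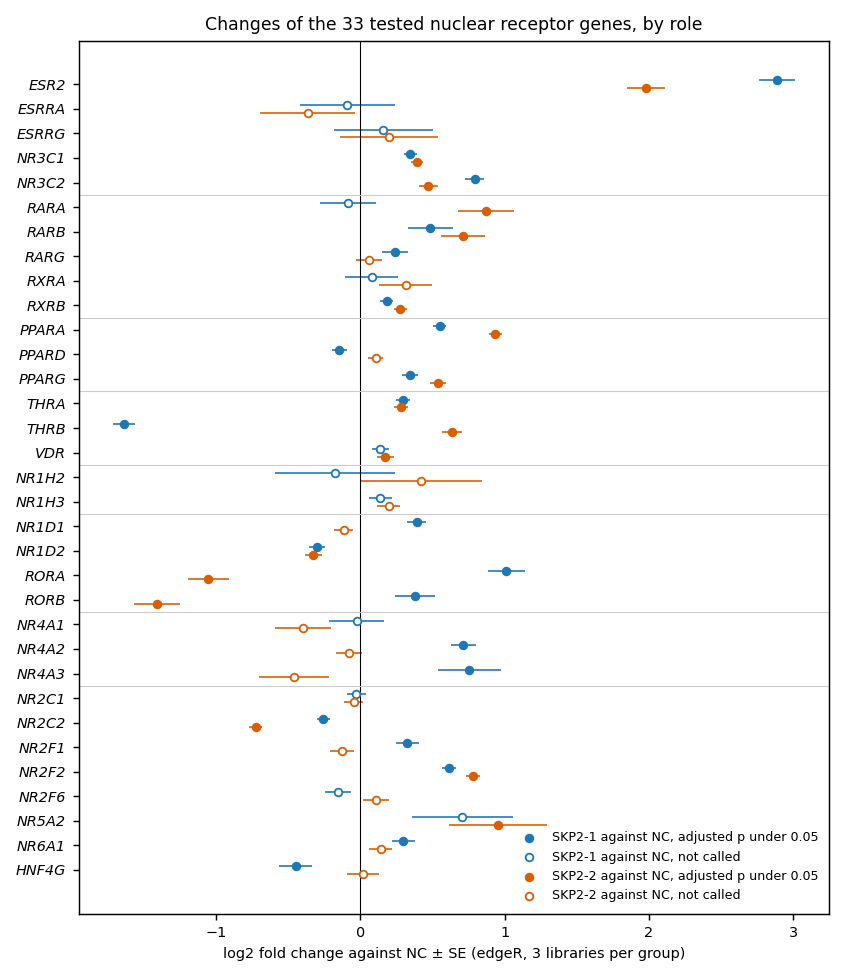
log2 fold change of the 33 tested receptor genes against NC with its SE, blue for SKP2-1 and orange for SKP2-2, filled where the adjusted p was under 0.05 and grouped by role. ESR2 lies farthest right with both siRNAs, at 2.89 and 1.98, while THRB, RORA and RORB have filled points on both sides of 0.

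Promoter sequences are given here for 6 of these genes, 3 that changed the same way with both siRNAs (ESR2, PPARA and NR2C2) and the 3 called in opposite directions (THRB, RORA and, with the call lost as given above, RORB). Each is the stretch before the RefSeq gene start on GRCh38.p14, written 5′ to 3′ on the gene's strand, with every CpG dinucleotide in capitals. ESR2 lies on the minus strand at chr14:64338614-64338863, PPARA on the plus strand at chr22:46150276-46150525 and NR2C2 on the plus strand at chr3:14947333-14947582. THRB lies on the minus strand at chr3:24495759-24495958, shortened to 200 bases to leave out the 50 that hold annotated exon, RORA on the minus strand at chr15:60627531-60627780 and RORB on the plus strand at chr9:74497085-74497334. GENCODE 29 places exon in 175 of the 250 bases given for NR2C2, 26 of those for ESR2 and 5 of those for PPARA. The NR2C2 and ESR2 stretches lie outside the GENCODE 29 spans of those genes, so the exon bases in them belong to other genes.
ESR2: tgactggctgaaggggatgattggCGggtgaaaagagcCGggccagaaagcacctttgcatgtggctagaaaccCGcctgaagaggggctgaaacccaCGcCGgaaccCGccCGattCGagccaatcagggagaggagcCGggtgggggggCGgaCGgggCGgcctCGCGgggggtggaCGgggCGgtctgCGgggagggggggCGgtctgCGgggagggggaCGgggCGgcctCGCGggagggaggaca
PPARA: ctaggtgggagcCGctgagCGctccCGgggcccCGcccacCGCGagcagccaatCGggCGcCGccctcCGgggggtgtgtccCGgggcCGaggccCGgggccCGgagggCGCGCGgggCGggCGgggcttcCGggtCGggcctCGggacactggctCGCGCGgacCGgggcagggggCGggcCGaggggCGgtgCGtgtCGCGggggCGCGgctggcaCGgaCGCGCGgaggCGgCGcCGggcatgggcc
NR2C2: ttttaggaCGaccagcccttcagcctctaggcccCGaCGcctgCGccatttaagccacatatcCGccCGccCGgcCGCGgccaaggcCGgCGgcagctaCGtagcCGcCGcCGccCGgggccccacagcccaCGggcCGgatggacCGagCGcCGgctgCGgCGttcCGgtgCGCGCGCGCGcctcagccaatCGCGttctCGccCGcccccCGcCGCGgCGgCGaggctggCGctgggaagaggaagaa
THRB: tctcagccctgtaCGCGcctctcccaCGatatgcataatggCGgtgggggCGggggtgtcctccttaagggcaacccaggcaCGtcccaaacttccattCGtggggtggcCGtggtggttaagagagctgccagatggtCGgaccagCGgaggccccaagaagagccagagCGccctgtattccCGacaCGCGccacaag
RORA: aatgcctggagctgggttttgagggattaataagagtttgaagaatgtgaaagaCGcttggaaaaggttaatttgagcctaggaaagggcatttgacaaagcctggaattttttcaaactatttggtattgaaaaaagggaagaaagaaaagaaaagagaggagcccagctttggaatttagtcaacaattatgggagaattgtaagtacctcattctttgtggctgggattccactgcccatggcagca
RORB: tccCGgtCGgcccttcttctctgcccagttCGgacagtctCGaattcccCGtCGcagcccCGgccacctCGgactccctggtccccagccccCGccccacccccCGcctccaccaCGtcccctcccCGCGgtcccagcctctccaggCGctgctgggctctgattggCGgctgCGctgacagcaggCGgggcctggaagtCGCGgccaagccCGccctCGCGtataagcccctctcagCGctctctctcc

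All but one of these stretches are GC-rich, with 63% to 84.4% G or C and 14 to 41 CpG, the exception being RORA, with 40% G or C and 1 CpG. The RORA stretch precedes an internal start 602 kb downstream of the outermost GENCODE 29 start of the gene. The ESR2 start used lies upstream of the gene's GENCODE 29 span. Bases just after the start used were found in no GENCODE 29 transcript of the gene for ESR2, RORA and RORB. Whether these starts serve the transcripts counted was not tested. Searched on both strands over 250 bases before each RefSeq start, the nuclear receptor half-site AGGTCA was found in 6 of the 34 receptor genes with an entry (RARA, RXRG, PPARG, NR1H3, NR1H4 and NR5A2), beside 12.1% of 35116 promoters. The E-box CACGTG was found in NR2C1 and NR2F2 (6.34% of all promoters), the cyclic AMP response element TGACGTCA in NR6A1 (1.65%), and the E2F sites TTTGGCGC and TTTCCCGC in none of the 34 (1.93%). None of the 6 sequences printed above holds any of these letters. The median receptor promoter had 61% G or C and 16.5 CpG, beside 58% and 11 over all promoters. No binding or chromatin data accompany these libraries, so a match describes the sequence only.

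Among steroid receptors, the largest change was that of ESR2, which encodes estrogen receptor beta (ENSG00000140009, minus strand, chr14:64084232-64338112 in GENCODE 29). It stood at 0.871, 0.619 and 0.762 CPM in NC, 5.66, 5.59 and 5.33 CPM with SKP2-1 and 2.98, 2.95 and 2.91 CPM with SKP2-2. All 6 SKP2 libraries lay above all 3 NC libraries, and the SKP2-1 libraries above the SKP2-2 libraries. The rise was 7.40-fold with SKP2-1 (log2 fold change 2.89 ± 0.13, adjusted p = 1.39e-09) and 3.95-fold with SKP2-2 (log2 fold change 1.98 ± 0.13, adjusted p = 5.23e-08). Between the siRNAs, ESR2 was 1.87 times lower with SKP2-2 (adjusted p = 9.47e-06). The depth behind these values was small, with 95 counts over the 3 NC libraries, 721 with SKP2-1 and 387 with SKP2-2. SYNE2, which encodes a nuclear envelope protein, runs on the opposite strand and its span covers 8.79% of the exon bases of ESR2, with no exon bases shared. The counts of SYNE2 fell with both siRNAs, by 0.21 and 0.38 on the log2 scale (adjusted p = 0.00367 and 3.77e-05). On the same strand as ESR2, the gene AL161756.1 shares 523 of its exon bases, or 5.6%. AL161756.1 was 0.354 CPM in NC, 0.222 with SKP2-1 and 0.228 with SKP2-2, and passed neither comparison with NC (edgeR, adjusted p = 0.257 and 0.274).

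The other estrogen and progesterone receptor genes were near the limit of detection. ESR1, which encodes estrogen receptor alpha, had 1, 3 and 4 counts in NC, 2, 2 and 1 with SKP2-1 and 12, 9 and 8 with SKP2-2, and PGR had 5, 9 and 17, 6, 8 and 8 and 6, 6 and 16. Fitted without the filter, ESR1 was higher with SKP2-2 than with NC (log2 fold change 1.79, adjusted p = 0.0162), on 8 counts against 29. SYNE1, a relative of SYNE2 on the strand opposite ESR1, has a span that covers 31.4% of the exon bases of ESR1, and it rose from 46.9 CPM in NC to 72.9 with SKP2-1 and 110.9 with SKP2-2. Exons of SYNE1 and ESR1 do not overlap in GENCODE 29. The annotation and strand setting of the counting are not stated, so reads from between the SYNE1 exons cannot be told from ESR1 reads. The part of such reads in the counts was not tested. The same holds for SYNE2 and ESR2.

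NR3C1 and NR3C2, the glucocorticoid and mineralocorticoid receptors, were both higher with both siRNAs. NR3C1 (ENSG00000113580) was 298, 313 and 328 CPM in NC, 397, 394 and 401 with SKP2-1 and 413, 415 and 404 with SKP2-2. Its SKP2 groups lay above NC without overlap, 1.27-fold (log2 fold change 0.35 ± 0.04, adjusted p = 2.76e-05) and 1.31-fold (log2 fold change 0.39 ± 0.04, adjusted p = 7.57e-06). The difference between the siRNAs did not pass the test (log2 fold change 0.05 ± 0.04, adjusted p = 0.4). It passed in 1 of 20 other analyses, and the libraries of the 2 siRNA groups did not overlap. NR3C2 (ENSG00000151623) was 19.0, 20.5 and 22.6 CPM in NC, 36.2, 35.7 and 35.9 with SKP2-1 and 29.2, 29.7 and 27.4 with SKP2-2. The 3 groups did not overlap, with SKP2-1 highest (log2 fold change 0.79 ± 0.07, adjusted p = 4.53e-07), SKP2-2 between (log2 fold change 0.47 ± 0.07, adjusted p = 4.67e-05) and a difference between the siRNAs of -0.32 on the log2 scale (adjusted p = 0.000975).

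The estrogen-related receptors ESRRA, an orphan regulator of mitochondrial genes, and ESRRG did not pass any comparison. ESRRA was 50.6, 30.3 and 23.96 CPM in NC, 32.6, 32.3 and 33.1 with SKP2-1 and 18.7, 27.2 and 35.1 with SKP2-2, a spread within NC and SKP2-2 that was wider than the gaps between group means. With counts corrected for GC content it was lower with SKP2-2 than in NC (log2 fold change -0.58, adjusted p = 0.00888). ESRRG stayed between 0.169 and 0.321 CPM in all 9 libraries.

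**Figure D3:**
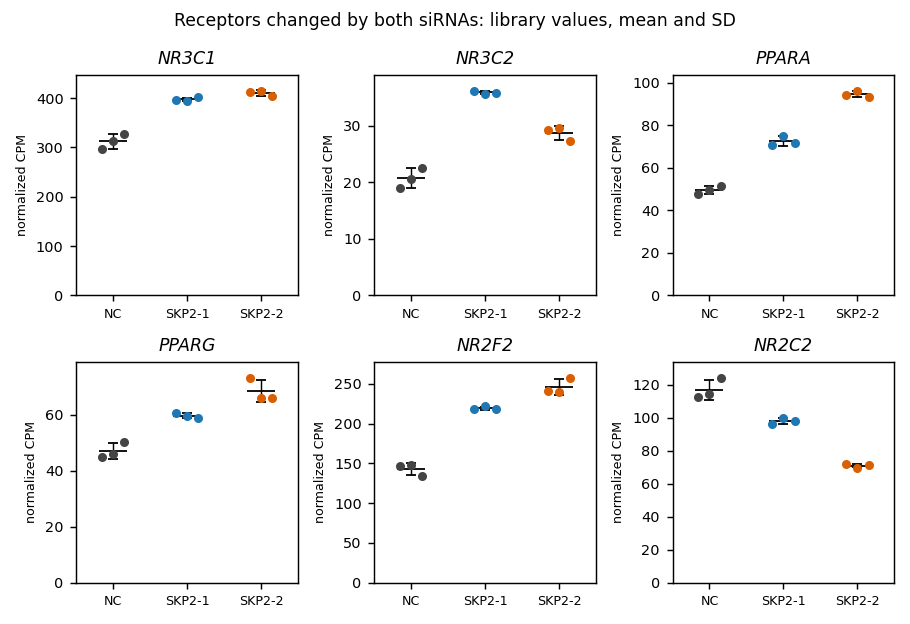
Normalized CPM in each library (points), with the mean and SD of each group, for 6 receptor genes that passed the test with both siRNAs. NR3C1, NR3C2, PPARA, PPARG and NR2F2 lie higher in both SKP2 groups than in NC and NR2C2 lies lower, with no overlap between NC and either SKP2 group.

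Chaperones of steroid receptors hold the unliganded protein in a hormone-binding form. Of 11 tested, 1 rose and 7 fell with SKP2-1, and 1 rose and 5 fell with SKP2-2. Over all genes tested, 25% rose and 20.5% fell with SKP2-1, and 25.2% and 24.1% with SKP2-2. These shares apply to every gene list below, and many list counts lie near them. FKBP4, the HSP90 partner that favours hormone binding, was 115 CPM in NC, 89.8 with SKP2-1 and 51.8 with SKP2-2 (log2 fold changes -0.36 and -1.15, adjusted p = 3.15e-05 and 7.4e-10). FKBP5, its counterpart that lowers hormone affinity and is itself a glucocorticoid target, fell by 0.79 and 0.55 on the log2 scale. PTGES3, the p23 cochaperone, fell by 0.80 with SKP2-1, and its change with SKP2-2 was -0.09 (adjusted p = 0.248).

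Among target genes of the glucocorticoid receptor, 3 of 9 tested rose and 1 fell with SKP2-1, and 1 rose and 2 fell with SKP2-2. ERRFI1, an inhibitor of EGF receptor kinases, rose from 358 CPM in NC to 787 with SKP2-1 (log2 fold change 1.13, adjusted p = 6.9e-09) and was 372 with SKP2-2 (0.05, adjusted p = 0.477). KLF9 rose by a log2 fold change of 0.67 with SKP2-1 and was at 0.00 with SKP2-2. Among estrogen receptor targets, 5 of 9 tested rose and 2 fell with SKP2-1, and 4 rose and 2 fell with SKP2-2. RERG, a small GTPase named for its response to estrogen, rose with both (log2 fold changes 0.76 and 1.79), MYB fell with both (-0.67 and -1.78), and AREG, an EGF receptor ligand, rose with SKP2-1 (0.94) and was at -0.10 with SKP2-2 (adjusted p = 0.263). Each of these lists was written with earlier results of these libraries known.

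Among retinoid receptors, RARA and RARB differed in which siRNA they followed. RARA (ENSG00000131759), the widely expressed retinoic acid receptor alpha, was 35.1, 26.1 and 21.9 CPM in NC, 24.8, 26.2 and 27.1 with SKP2-1 and 43.3, 47.4 and 60.5 with SKP2-2. SKP2-2 lay above both other groups, 1.82-fold over NC (log2 fold change 0.87 ± 0.19, adjusted p = 0.00825) and 1.94-fold over SKP2-1 (log2 fold change 0.95 ± 0.19, adjusted p = 0.00529), whereas SKP2-1 overlapped NC (log2 fold change -0.09 ± 0.19, adjusted p = 0.756). Spread within NC and within SKP2-2 was wide for this gene. RARB (ENSG00000077092), which retinoic acid induces through its own receptor, was 1.66, 1.503 and 1.44 CPM in NC, 2.31, 2.31 and 1.82 with SKP2-1 and 2.71, 2.74 and 2.08 with SKP2-2. Both SKP2 groups lay above NC (log2 fold change 0.48 ± 0.16, adjusted p = 0.0215 and log2 fold change 0.71 ± 0.15, adjusted p = 0.00167), and the call with SKP2-1 was lost in 7 of 20 other analyses, among them those without NC replicate 2 or 3 or SKP2-1 replicate 1 or 2 (adjusted p = 0.0627 to 0.0797).

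RARG (ENSG00000172819), the receptor prominent in skin, was 33.3, 29.1 and 25.7 CPM in NC, 35.1, 35.8 and 33.3 with SKP2-1 and 27.9, 30.5 and 33.3 with SKP2-2. Its rise with SKP2-1 passed narrowly although the highest NC library overlapped the lowest SKP2-1 library (log2 fold change 0.24 ± 0.09, adjusted p = 0.0451), and 14 of 20 other analyses lost that call, including those without any one of 7 libraries (adjusted p = 0.0616 to 0.161). Between the siRNAs it differed by -0.18 (adjusted p = 0.114), a difference that passed in 6 of 20 other analyses, among them those without NC replicate 1 or 3 (adjusted p = 0.0307 and 0.0465) and the correction for GC content (-0.34, adjusted p = 1.25e-05). RXRB (ENSG00000204231), the ubiquitous form of the shared partner RXR, was 92.1, 101 and 98.2 CPM in NC, 109.9, 109 and 111 with SKP2-1 and 123, 118 and 113 with SKP2-2. The groups did not overlap NC, and the rises were small (log2 fold change 0.18 ± 0.05, adjusted p = 0.00663 and log2 fold change 0.28 ± 0.05, adjusted p = 0.000287). Both were lost when counts were corrected for GC content (adjusted p = 0.311 and 0.342). The difference between the siRNAs did not pass (log2 fold change 0.10 ± 0.05, adjusted p = 0.111), with no overlap between their libraries. It passed in 3 of 20 other analyses and changed sign in 1. RXRB shares 244 exon bases on the opposite strand with SLC39A7. RXRA, the RXR of liver and skin, was 92.8, 70.5 and 59.3 CPM in NC, 81.0, 78.8 and 75.0 with SKP2-1 and 76.7, 94.5 and 105 with SKP2-2. It passed no comparison, and without NC replicate 1 it was higher with SKP2-2 (log2 fold change 0.49, adjusted p = 0.0287). RXRG had 1 count in each of 3 libraries and none in the other 6.

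Of 6 tested genes of retinoid metabolism and response, 2 rose and 3 fell with SKP2-1, and 2 rose and 1 fell with SKP2-2. DHRS3, which reduces retinaldehyde back to retinol and is a retinoic acid target, fell with both (log2 fold changes -0.86 and -1.53, adjusted p = 0.000829 and 9.14e-06). ALDH1A3, an enzyme that makes retinoic acid, fell with SKP2-1 (-0.54) and rose with SKP2-2 (0.45). RDH10, which makes retinaldehyde, rose with SKP2-1 (0.48) and was at -0.03 with SKP2-2.

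PPARA and PPARG, the fatty acid receptors of fat burning and of fat storage, were higher with both siRNAs, and higher with SKP2-2 than with SKP2-1. PPARA (ENSG00000186951, plus strand, chr22:46150521-46243756) was 47.8, 49.4 and 51.4 CPM in NC, 70.8, 75.2 and 71.7 with SKP2-1 and 94.3, 96.2 and 93.5 with SKP2-2. The 3 groups did not overlap, and the steps were 1.46-fold (log2 fold change 0.55 ± 0.05, adjusted p = 4.84e-07) and 1.91-fold (log2 fold change 0.93 ± 0.05, adjusted p = 3.22e-09) over NC and 1.30-fold between the siRNAs (adjusted p = 1.07e-05). PPARG (ENSG00000132170) was 44.8, 46.1 and 50.1 CPM in NC, 60.6, 59.5 and 58.8 with SKP2-1 and 73.0, 66.1 and 66.0 with SKP2-2. It followed the same order at smaller size (log2 fold change 0.34 ± 0.06, adjusted p = 0.000239 and log2 fold change 0.54 ± 0.06, adjusted p = 3.74e-06), with a difference between the siRNAs of 0.20 (adjusted p = 0.0102).

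PPARD (ENSG00000112033), the widely expressed delta form, did not follow them. It was 87.1, 83.7 and 78.2 CPM in NC, 73.6, 76.3 and 75.2 with SKP2-1 and 84.7, 94.1 and 89.2 with SKP2-2. SKP2-1 lay just under the lowest NC library (log2 fold change -0.14 ± 0.05, adjusted p = 0.0391), a call lost in 7 of 20 other analyses, including those without NC replicate 1 or 2 or any one SKP2-1 replicate (adjusted p = 0.055 to 0.133). SKP2-2 overlapped NC (log2 fold change 0.11 ± 0.05, adjusted p = 0.114, and 0.0381 without NC replicate 1) and exceeded SKP2-1 (log2 fold change 0.25 ± 0.05, adjusted p = 0.00141). The difference between the siRNAs was lost with the correction for GC content (adjusted p = 0.0537).

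Of 10 tested PPAR target genes, 8 rose and none fell with SKP2-1 (25% and 20.5% of all genes). With SKP2-2, 5 rose and 2 fell (25.2% and 24.1% of all genes). PLIN2, the coat protein of lipid droplets, rose from 90.5 CPM in NC to 149 with SKP2-1 and 160.0 with SKP2-2 (log2 fold changes 0.72 and 0.82). SLC25A20, the carnitine carrier of mitochondria, rose by log2 fold changes of 0.53 and 0.91. CPT1A, which commits fatty acids to mitochondrial oxidation, rose with SKP2-1 (0.26) and fell with SKP2-2 (-0.46).

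THRB, one of the 2 thyroid hormone receptor genes, moved in opposite directions with the 2 siRNAs. THRB (ENSG00000151090, minus strand, chr3:24117153-24495756) was 16.5, 16.2 and 17.5 CPM in NC, 5.83, 5.03 and 5.25 with SKP2-1 and 27.2, 26.0 and 24.8 with SKP2-2. SKP2-1 lay below and SKP2-2 above NC, with no overlap between any 2 groups. The gene was 3.11 times lower with SKP2-1 (log2 fold change -1.64 ± 0.08, adjusted p = 2.08e-09) and 1.56-fold higher with SKP2-2 (log2 fold change 0.64 ± 0.07, adjusted p = 5.92e-06). Between the siRNAs the ratio was 4.84-fold (log2 fold change 2.28 ± 0.08, adjusted p = 8.88e-11), the largest among the 33 tested receptors in that comparison. The opposite-strand gene THRB-AS1, whose span covers 7.46% and whose exons cover 0.383% of the exon bases of THRB, was under the filter.

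THRA (ENSG00000126351), the other thyroid hormone receptor gene, was 53.2, 54.2 and 51.9 CPM in NC, 62.2, 66.3 and 67.3 with SKP2-1 and 66.3, 65.1 and 61.99 with SKP2-2. Both SKP2 groups lay above NC (log2 fold change 0.30 ± 0.05, adjusted p = 0.000217 and log2 fold change 0.28 ± 0.05, adjusted p = 0.000318) and overlapped each other. Both calls were lost with the correction for GC content (adjusted p = 0.0848 and 0.47). THRA and NR1D1 share 263 exon bases on opposite strands. VDR (ENSG00000111424), the vitamin D receptor, was 14.4, 14.5 and 13.99 CPM in NC, 15.6, 15.4 and 16.2 with SKP2-1 and 16, 16.5 and 15.9 with SKP2-2. The rise passed with SKP2-2 (log2 fold change 0.17 ± 0.06, adjusted p = 0.0255) and not with SKP2-1 (log2 fold change 0.14 ± 0.06, adjusted p = 0.0724), and 12 of 20 other analyses lost it, including those without any one of 5 libraries (NC replicate 2 or 3, or any SKP2-2 replicate, adjusted p = 0.0514 to 0.113).

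Of 4 tested genes of thyroid hormone handling and response, 3 rose and none fell with SKP2-1, and none rose and 1 fell with SKP2-2. DIO2, the deiodinase that makes active hormone, rose with SKP2-1 (log2 fold change 0.82) and fell with SKP2-2 (-1.19, adjusted p = 1.81e-05). KLF9, a target of both thyroid hormone and glucocorticoids, is described above. Of 5 tested vitamin D genes, 2 rose and none fell with SKP2-1, and 1 rose and 2 fell with SKP2-2. THBD, thrombomodulin, rose from 53.0 CPM in NC to 122 with SKP2-1 and fell to 36.2 with SKP2-2 (log2 fold changes 1.21 and -0.55), CD14 rose with both (1.09 and 0.98), and CYP24A1, which degrades vitamin D, fell with SKP2-2 (-1.002) and was at -0.11 with SKP2-1. THBD is also a gene of endothelial cells, which no label of these MDA-MB-231 libraries names. The summed endothelial markers were higher in the SKP2-1 libraries as given above, and a link to THBD was not tested.

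The liver X receptors NR1H2 and NR1H3, which sense oxidised cholesterol, passed no comparison. NR1H2 was 80.03, 44.9 and 28.9 CPM in NC, 43.6, 45.2 and 46.9 with SKP2-1 and 44.7, 68.2 and 92.5 with SKP2-2, so that single libraries of NC and SKP2-2 spanned more than any gap between means. NR1H3 was 16.3, 14.4 and 13.2 CPM in NC, 15.3, 16.9 and 16.1 with SKP2-1 and 17.3, 16.1 and 16.9 with SKP2-2, and without NC replicate 1 it was higher with both (adjusted p = 0.035 and 0.0073). NR1H4, the bile acid receptor, had 1 count in the 9 libraries together. Of 9 LXR target genes, 4 rose and 2 fell with SKP2-1, and 3 rose and 2 fell with SKP2-2. ABCA1, the cholesterol exporter, rose with both (log2 fold changes 0.58 and 0.57), as did SMPDL3A (0.79 and 0.55), while MYLIP, which marks the LDL receptor for destruction, rose with SKP2-1 (0.21) and fell with SKP2-2 (-0.96).

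RORA and RORB, activators that compete with the REV-ERB repressors for the same sites in the circadian clock, differed most between the siRNAs after THRB. RORA (ENSG00000069667, minus strand, chr15:60488284-61229319) was 2.53, 3.03 and 2.77 CPM in NC, 5.71, 5.90 and 5.27 with SKP2-1 and 1.504, 1.04 and 1.48 with SKP2-2. The 3 groups did not overlap. RORA was 2.02-fold higher with SKP2-1 (log2 fold change 1.01 ± 0.13, adjusted p = 2.2e-05) and 2.07 times lower with SKP2-2 (log2 fold change -1.05 ± 0.14, adjusted p = 4.45e-05), a ratio of 4.18 between the siRNAs (log2 fold change -2.06 ± 0.14, adjusted p = 4.93e-08). The counts behind these means were 358 in NC, 732 with SKP2-1 and 176 with SKP2-2. The span of RORA-AS1 on the opposite strand covers 89.8% of the exon bases of RORA, but its exons share only 3.31% of them. RORA-AS1 itself was under the filter.

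RORB (ENSG00000198963, plus strand, chr9:74497365-74693177) was 2.98, 4.33 and 3.94 CPM in NC, 5.45, 4.69 and 4.58 with SKP2-1 and 1.53, 1.18 and 1.54 with SKP2-2. SKP2-2 lay far below NC (log2 fold change -1.41 ± 0.16, adjusted p = 7.95e-06) and below SKP2-1 (log2 fold change -1.79 ± 0.16, adjusted p = 6.94e-07). SKP2-1 lay slightly above NC (log2 fold change 0.38 ± 0.14, adjusted p = 0.0433), and 13 of 20 other analyses lost that rise, including those without any one of 6 libraries (adjusted p = 0.0584 to 0.167). The opposite sign of RORB therefore rests on a rise that held in 7 of those 20.

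**Figure D4:**
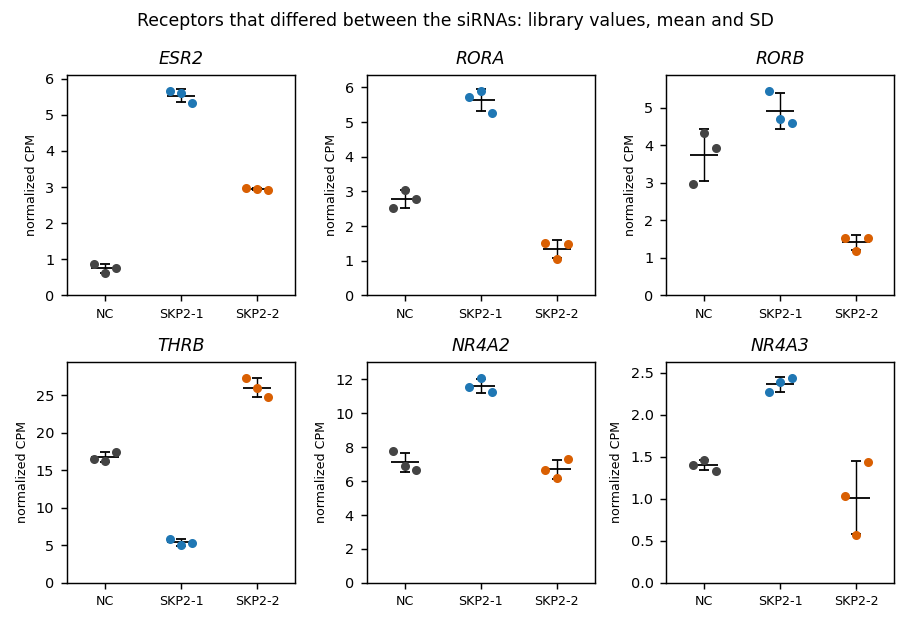
Normalized CPM in each library (points), with the mean and SD of each group, for 6 receptor genes that differed between the siRNAs. RORA, RORB, NR4A2 and NR4A3 are highest with SKP2-1, THRB is lowest with SKP2-1 at 5.03 to 5.83 CPM, and ESR2 is lowest in NC.

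The REV-ERB genes NR1D1 and NR1D2, heme-binding repressors of the clock gene BMAL1, went apart with SKP2-1. NR1D1 (ENSG00000126368) was 18.1, 17.4 and 17.1 CPM in NC, 22.97, 21.7 and 24.3 with SKP2-1 and 16.1, 15.4 and 17.1 with SKP2-2. It was higher with SKP2-1 than in NC (log2 fold change 0.39 ± 0.07, adjusted p = 0.000271) and than with SKP2-2, which did not pass against NC (log2 fold change -0.11 ± 0.07, adjusted p = 0.177) but was lower with the correction for GC content (-0.28, adjusted p = 0.0103). NR1D2 (ENSG00000174738) was 104, 116 and 123 CPM in NC, 93.2, 93.8 and 91.8 with SKP2-1 and 93.8, 89.0 and 91.1 with SKP2-2. Both SKP2 groups lay below NC (log2 fold change -0.30 ± 0.06, adjusted p = 0.000707 and log2 fold change -0.32 ± 0.06, adjusted p = 0.000334) and overlapped each other. NKIRAS1, on the opposite strand with a span over 8.04% of the exon bases of NR1D2 but no exon bases shared, also fell with both siRNAs (log2 fold changes -0.67 and -1.04). Of 14 tested circadian clock genes, 6 rose and 5 fell with SKP2-1, and 5 rose and 4 fell with SKP2-2. CLOCK, the partner of BMAL1, fell with SKP2-1 (-1.15, adjusted p = 2.47e-09) and rose with SKP2-2 (0.28), PER3 fell with SKP2-1 (-1.30) and was at -0.03 with SKP2-2, and NPAS2, which can replace CLOCK, rose with both (0.66 and 0.27).

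The NR4A receptors are immediate early genes whose activity follows their transcript level. NR4A2 (ENSG00000153234) was 7.76, 6.87 and 6.67 CPM in NC, 11.5, 12.1 and 11.2 with SKP2-1 and 6.63, 6.17 and 7.31 with SKP2-2. SKP2-1 stood above both other groups (log2 fold change 0.71 ± 0.09, adjusted p = 1.8e-05 over NC), which overlapped each other (log2 fold change -0.08 ± 0.09, adjusted p = 0.489 for SKP2-2 over NC), and the difference between the siRNAs was -0.79 ± 0.09 (adjusted p = 5.89e-06). NR4A3 (ENSG00000119508) was 1.41, 1.46 and 1.33 CPM in NC, 2.26, 2.38 and 2.43 with SKP2-1 and 1.04, 0.567 and 1.44 with SKP2-2. It was likewise highest with SKP2-1 (log2 fold change 0.75 ± 0.22, adjusted p = 0.0129 over NC), a call lost without NC replicate 3 and SKP2-2 replicate 1 together (adjusted p = 0.0877), and SKP2-2 was 2.32 times lower than SKP2-1 (adjusted p = 0.000656) with a wide spread of its own. Without SKP2-2 replicate 3, SKP2-2 was also lower than NC (log2 fold change -0.81, adjusted p = 0.00971). NR4A1 was 2.75, 1.97 and 1.86, 1.96, 2.15 and 2.29 and 1.38, 1.41 and 2.14 CPM in the same order and passed no comparison, and without SKP2-2 replicate 3 it was lower with SKP2-2 than in NC (-0.64, adjusted p = 0.0149) and than with SKP2-1 (-0.62, adjusted p = 0.0181).

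Of 10 other immediate early genes, 5 rose and none fell with SKP2-1, while 1 rose and 3 fell with SKP2-2. EGR1 was 10.9 CPM in NC, 14.6 with SKP2-1 and 4.50 with SKP2-2 (log2 fold changes 0.43 and -1.27). EGR3 rose with SKP2-1 (1.91) and was at -0.77 with SKP2-2 (adjusted p = 0.0711), and KLF4 rose with both (0.93 and 0.35).

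Among the remaining orphan receptors, NR2F2 and NR2C2 changed the same way with both siRNAs. NR2F2 (ENSG00000185551), or COUP-TFII, a regulator of vein and stromal cell identity, was 147, 148 and 135 CPM in NC, 218, 221 and 218 with SKP2-1 and 240.4, 239 and 257 with SKP2-2. The 3 groups did not overlap, with rises of 1.53-fold (log2 fold change 0.61 ± 0.05, adjusted p = 3.2e-07) and 1.71-fold (log2 fold change 0.78 ± 0.05, adjusted p = 3e-08). Between the siRNAs the gap was 0.16 (adjusted p = 0.0125), a call lost without SKP2-2 replicate 3 (adjusted p = 0.0649) or SKP2-1 replicate 1. NR2C2 (ENSG00000177463, plus strand, chr3:14947584-15053600), the TR4 receptor, was 113, 115 and 124 CPM in NC, 96.3, 99.7 and 98.1 with SKP2-1 and 71.8, 69.8 and 71.3 with SKP2-2. It fell in 2 steps without overlap (log2 fold change -0.26 ± 0.05, adjusted p = 0.000433 and log2 fold change -0.72 ± 0.05, adjusted p = 3.48e-08). MRPS25, a mitochondrial ribosomal protein gene on the opposite strand, shares 1197 exon bases with NR2C2, or 10.1% of them, and changed by -0.05 (adjusted p = 0.538) and -0.67 (adjusted p = 1.77e-06). FGD5-AS1, which shares 155 of them, fell by 0.98 and 0.67 on the log2 scale. NR2C1, the related TR2 receptor, stayed between 27.3 and 31.7 CPM in all libraries and passed no comparison.

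NR2F1 (ENSG00000175745), or COUP-TFI, was 24.1, 21.4 and 19.1 CPM in NC, 27.1, 27.5 and 26.5 with SKP2-1 and 18.2, 20.3 and 20.8 with SKP2-2. It was higher with SKP2-1 (log2 fold change 0.33 ± 0.08, adjusted p = 0.00496), a call lost when only these 2 groups entered the fit (adjusted p = 0.0854). SKP2-2 overlapped NC (log2 fold change -0.13 ± 0.08, adjusted p = 0.228) and was lower than NC in 3 of 20 other analyses, among them the one without NC replicate 3 (-0.21, adjusted p = 0.0378) and the correction for GC content (-0.27, adjusted p = 0.000161). NR2F1-AS1, on the opposite strand with a span over 52.5% of the exon bases of NR2F1 and exons over 3.66% of them, was at 0.05 and 0.29 on the same scale. NR2F6 (ENSG00000160113), another COUP-TF relative, was 20.4, 17.9 and 16.5 CPM in NC, 16.9, 16.6 and 15.8 with SKP2-1 and 17.7, 19.4 and 21.9 with SKP2-2. Of the 3 comparisons it passed the one between the siRNAs (log2 fold change 0.26 ± 0.09, adjusted p = 0.0295), and with the correction for GC content that difference turned to -0.19 (adjusted p = 0.53). It was also lost without any one SKP2-1 replicate or without SKP2-2 replicate 2 or 3 (adjusted p = 0.0569 to 0.144).

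NR6A1 (ENSG00000148200), the germ cell nuclear factor, was 6.24, 6.87 and 6.45 CPM in NC, 7.48, 8.38 and 8.19 with SKP2-1 and 7.00, 7.46 and 7.14 with SKP2-2. The rise passed with SKP2-1 (log2 fold change 0.30 ± 0.08, adjusted p = 0.00805) and not with SKP2-2 (log2 fold change 0.14 ± 0.08, adjusted p = 0.165), and the former was lost without NC replicate 3 and SKP2-2 replicate 1 together (adjusted p = 0.0522). HNF4G (ENSG00000164749), a gut and kidney factor, was 5.59, 5.59 and 6.73 CPM in NC, 4.84, 4.61 and 3.73 with SKP2-1 and 5.99, 6.35 and 5.83 with SKP2-2. SKP2-1 lay below both other groups (log2 fold change -0.45 ± 0.11, adjusted p = 0.00561 against NC). NR5A2 (ENSG00000116833), the liver receptor homologue, was 0.225, 0.199 and 0.169 CPM in NC, 0.330, 0.308 and 0.324 with SKP2-1 and 0.518, 0.249 and 0.386 with SKP2-2, on 25, 42 and 50 counts per group. It passed with SKP2-2 only (log2 fold change 0.95 ± 0.34, adjusted p = 0.0322), and 9 of 19 other analyses lost that call, including those without NC replicate 2 or 3 or SKP2-2 replicate 1 or 3 (adjusted p = 0.0696 to 0.151). The NC libraries held 8, 9 and 8 counts of NR5A2, under the filter's 10. The gene thus passed the filter only through the SKP2 libraries, where it was higher, and its call carries little weight. HNF4A had 1 count in the 9 libraries together. Of 10 further genes of the superfamily, 8 were under the filter. Of the others, NR2E3 passed neither comparison with NC.

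Coregulators, which carry a receptor's signal to chromatin, changed in both directions. Of 15 coactivators, 5 rose and 3 fell with SKP2-1, and 3 rose and 5 fell with SKP2-2. NCOA3, the p160 coactivator amplified in some breast cancers, was 114 CPM in NC, 140.5 with SKP2-1 and 49.7 with SKP2-2 (log2 fold changes 0.30 and -1.20, adjusted p = 0.00085 and 3.26e-09). NCOA2, of the same family, followed it at smaller size (0.17 and -0.61), and the acetyltransferase KAT2B did the reverse (-0.39 and 0.49). Of 9 corepressors, 2 rose and 3 fell with SKP2-1, and 1 rose and 3 fell with SKP2-2. NRIP1, or RIP140, rose with SKP2-1 (0.24) and fell with SKP2-2 (-0.65), SIN3A fell with both (-0.21 and -0.27), and TBL1X rose with both (0.13 and 0.24).

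Some receptor genes varied within a group along with the GC content of their transcripts. NR1H2 was 2.77-fold higher in NC replicate 1 than in NC replicate 3, ESRRA 2.11-fold, RARA 1.60-fold and RXRA 1.57-fold. Within SKP2-2, replicate 3 exceeded replicate 1 by 2.07-fold for NR1H2, 1.88-fold for ESRRA, 1.40-fold for RARA and 1.37-fold for RXRA. Across the 33 tested receptors, GC content correlated with these log2 ratios (Pearson r = 0.66 in NC and 0.60 in SKP2-2), and over 16555 genes r was 0.53 and 0.42. Genes are not independent replicates and share the same libraries, so these are descriptions. Between SKP2-1 replicates 1 and 3, r over all genes was 0.00.

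**Figure D5:**
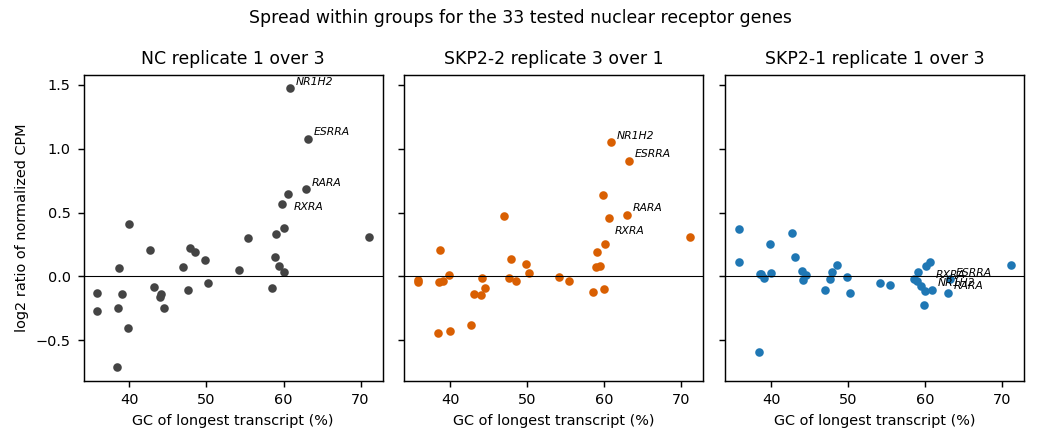
log2 ratio of normalized CPM between 2 libraries of 1 group against the GC content of the longest transcript (%), 1 point per tested receptor gene, for NC, SKP2-2 and SKP2-1. NR1H2 and ESRRA lie highest in NC and SKP2-2, with NR1H2 at 2.77-fold and 2.07-fold, and the SKP2-1 points stay near 0 except for a few low-count genes.

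Repeating the tests in 20 other ways, among them the correction for GC content and the omission of each library, left these receptors called in the same direction throughout: ESR2, NR3C1, NR3C2, PPARA, PPARG, THRB, NR1D2, RORA, NR2C2 and NR2F2 with both siRNAs, NR1D1, NR4A2 and HNF4G with SKP2-1, and RARA, RARB and RORB with SKP2-2. That made 13 of the 22 calls with SKP2-1 and 13 of the 17 with SKP2-2, and 14 of the 17 between the siRNAs. The share of all called genes kept in the same way was not taken, so these counts describe single genes and no trait of the receptors.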

How the data were processed

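Per the labels' protocols, RNA was purified with a column kit and DNase I. The deposited files hold raw read counts per Ensembl gene. The submitters' processing notes name HTSeq 0.6.1, STAR, Trim Galore 0.4.1 and FastQC 0.11.2, and also DESeq2 1.16.1. The build, annotation, strand setting and scaling are not given in the sources used here. The closing summary lines of each file were left out of the totals. They held 5.34% to 5.92% (no feature) and 3.87% to 3.97% (ambiguous) of the sum of all lines in the file, summary lines included.

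Symbols came from the supplied name table, and positions, exon lengths and overlaps from GENCODE 29 on GRCh38 by gene identifier. Promoters came from RefSeq on GRCh38.p14, with 34 of 38 members matched. Protein sequences were not used here.

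All genes were fitted with edgeR 4.0.16 in R 4.3.3: filterByExpr (at least 10 counts, 15 in total, 16575 genes kept), TMM scaling, and a robust quasi-likelihood fit on group over 9 libraries. F tests were two-sided, with Benjamini-Hochberg adjustment over all genes tested and a threshold of 0.05. The SE was taken as the log2 fold change over the root of the F statistic. The comparisons were SKP2-1 with NC, SKP2-2 with NC and SKP2-2 with SKP2-1. Members with a call in at least 1 comparison (26) were given library by library, and the others in brief. From each gene list the counts and up to 3 members with the smallest adjusted p against NC were named, and a few list genes are not reported here. The members and lists were chosen with earlier results of these data known. The fitting code was tested on simulated counts.

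Alternatives were RLE scaling, library totals, no filter or 1 CPM in 3 libraries, DESeq2 1.42.0, limma-voom (limma 3.58.1), the replicate number as a block, only the 2 groups compared, and each library left out. The omission of NC replicate 1 with SKP2-2 replicate 3 was also listed. GC offsets, fitted per library on the GC content of the longest transcript, and the omission of NC replicate 3 with SKP2-2 replicate 1 were chosen after seeing the data.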

Additional observations from a re-analysis of the deposited data

Results flagged for a closer look

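THRB, RORA and RORB moved in opposite directions with the 2 siRNAs, each relative to the same NC libraries, and the difference between the siRNAs passed edgeR's quasi-likelihood test with Benjamini-Hochberg adjustment. THRB was lower with SKP2-1 and higher with SKP2-2, a difference of 2.28 on the log2 scale (adjusted p = 8.88e-11). RORA was higher with SKP2-1 and lower with SKP2-2, a difference of -2.06 (adjusted p = 4.93e-08). RORB followed RORA, with a difference of -1.79 (adjusted p = 6.94e-07), but its rise with SKP2-1 over NC was lost in 13 of 20 other analyses (adjusted p up to 0.167). In each case all 3 SKP2-2 libraries lay on 1 side of all 3 SKP2-1 libraries. The residual SKP2 level was 3.58 CPM with SKP2-1 and 5.96 CPM with SKP2-2, and its part in these differences was not tested.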

How the results depend on the processing

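The counts of receptor genes called stayed within 1.5 times under every alternative with 1 exception: the number lower with SKP2-2 than in NC was 4, and 9 with the GC offsets. Over all genes, those offsets gave 55.6% called with SKP2-2 against NC, and 49.6% of the called genes were higher. The cause of the exception was not tested. Of the single-gene values, 48 changed sign, 78 lost and 39 gained a call and 1808 did neither. The sign changes concerned values with no call on either side, apart from NR2F6 between the siRNAs, which lost one, and RARG with SKP2-2, which gained one in the other direction.

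Between SKP2-2 and SKP2-1, the GC offsets gave -0.19 for NR2F6, -0.010 for RXRB, 0.033 for NR1D2 and 0.041 for NR2C1. Between SKP2-2 and NC they gave -0.11 for RARG (adjusted p = 0.0344), -0.043 for PPARD, 0.025 for NR2C1 and -0.33 for NR2F6. Without NC replicate 1 and SKP2-2 replicate 3 together, SKP2-1 against NC was 0.26 for ESRRA, 0.10 for RARA, 0.28 for NR1H2 and 0.15 for NR4A1, and THRA between the siRNAs was 0.025. Without NC replicate 3 and SKP2-2 replicate 1 together, RXRA was -0.12 (SKP2-1 against NC), RARG -0.033 (SKP2-2 against NC), and between the siRNAs ESRRG was -0.13, NR2C1 0.021 and NR5A2 -0.018. HNF4G, SKP2-2 against NC, was -0.0064 with RLE scaling, -0.0067 with DESeq2, -0.012 with the filter of 1 CPM and -0.0056 with only the 2 groups. Library totals gave 0.017 for THRA, 0.0078 for NR1D2 and 0.014 for NR2C1 between the siRNAs. limma-voom gave 0.00090 for ESRRA and 0.0085 for NR4A1, SKP2-1 against NC.

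With 1 library left out, values that crossed 0 ranged as follows for SKP2-1 against NC: ESRRA from -0.30 to 0.25, RARA from -0.23 to 0.10, NR1H2 from -0.46 to 0.28, NR4A1 from -0.13 to 0.15, RXRA from -0.060 to 0.26 and NR2C1 from -0.064 to 0.013. For SKP2-2 against NC they were HNF4G from -0.035 to 0.11, RARG from -0.030 to 0.15 and ESRRG from -0.0039 to 0.39. Between the siRNAs they were ESRRG from -0.13 to 0.15, NR2C1 from -0.076 to 0.021, THRA from -0.054 to 0.010 and NR5A2 from -0.018 to 0.48.

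Replicate numbers are shared by the groups, and no label says whether they pair the libraries. Same-numbered libraries correlated in their deviations from the group means at r from -0.50 to 0.05, and differently numbered ones at r from -0.20 to 0.50. With the drift within NC and SKP2-2 described above, these values cannot decide whether a pairing exists. With the replicate block, 15 receptor genes were higher and 4 lower with SKP2-1 (41.1% of all genes called), 12 and 4 with SKP2-2 (45.3%) and 7 and 9 between the siRNAs (45.2%). In that fit 11 changed the same way with both siRNAs, a count for which no share of all genes was taken.

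Depth limited ESR1, PGR, RXRG, NR1H4 and HNF4A, where 1 count equals 0.0203 to 0.0281 CPM.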
